A study of Homo sapiens with 6 samples.

Results

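The genes of the proteasome were followed in OVCAR5 cells, a human cancer cell line, after treatment with SpiD7. The set comprised 43 genes, taken by symbol out of 29982 in the deposited table: 17 of the core particle (PSMA and PSMB), 20 of the regulatory particle and its chaperones (PSMC and PSMD), 4 activators (PSME) and 2 genes of assembly and control (POMP and NFE2L1). All 43 had a mean FPKM of at least 1, as did 13287 genes in all, which form the background below. FPKM is a fragment count divided by transcript length and library size, so that levels can be set side by side between genes.

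The proteasome degrades proteins that carry ubiquitin chains. Its core is a barrel of alpha and beta rings with the proteolytic sites inside, and it is opened by the regulatory particle, whose base unfolds the substrate with a ring of ATPases and whose lid removes the ubiquitin. In cells whose proteasome is inhibited, the transcription factor NRF1, the product of NFE2L1, is known to be processed and to raise the transcription of many subunits together, which is called the bounce-back response. In cells exposed to interferon, beta subunits encoded by PSMB8, PSMB9 and PSMB10 replace the constitutive catalytic subunits encoded by PSMB5, PSMB6 and PSMB7.

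The 6 libraries were from cells given the vehicle DMSO (2 libraries, with no duration in the sample labels) and from cells given 10 µM SpiD7 for 2 h (2 libraries), 6 h (1 library) or 12 h (1 library). SpiD7 is a spirocyclic dimer that the study evaluated as an activator of the unfolded protein response. All values are from a single cell line, and nothing in the labels says that the replicates came from separate cultures, so that their spread may be technical. In these bulk samples a change in RNA per cell and a change in the make-up of the culture cannot be told apart.

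Replicate 2 of DMSO and of 2 h was recovered from a column of group means, and every value given for a replicate 2 rests on that step. The table holds no read counts, so that total depth is unknown. The DMSO libraries differed from each other by more than 1.5-fold in 4338 genes, which is 32.6% of those kept, and in 5 of the 43 proteasome genes. All 6 epithelial markers (EPCAM, CDH1, KRT7, KRT8, KRT18 and KRT19) were expressed in every library, with a summed FPKM of 3151 to 4721. Of the ovarian carcinoma markers, PAX8 lay at 1.64 to 2.12 FPKM, while WT1 and MUC16 stayed under 1 FPKM in every library. Of the leukocyte and fibroblast markers, CD14 lay at 3.10 to 9.36 FPKM and COL1A1 at 0.60 to 2.18. The others (PTPRC, CD3E, COL1A2 and PDGFRA) stayed under 1 FPKM in every library.

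The sequences before the start of PSMD12, a lid subunit, and PSME4, an activator, are shown because these genes had the largest increases at 12 h and share a stretch of 10 bases. They were taken from the RefSeq promoter table (GRCh38.p14, read 5′ to 3′ on the strand of the gene), and bases that lie inside the gene by GENCODE were left out. The capitals mark a match to TGACNNNGC, the core of the antioxidant response element, to which NRF1 and NRF2 bind together with small MAF proteins. The PSMD12 sequence lies at chr17:67366628-67366827 on the minus strand, with the match starting 165 bases before the RefSeq start. The PSME4 sequence lies at chr2:53970994-53971243 on the minus strand, with the match on the opposite strand, 34 bases before the start.
PSMD12: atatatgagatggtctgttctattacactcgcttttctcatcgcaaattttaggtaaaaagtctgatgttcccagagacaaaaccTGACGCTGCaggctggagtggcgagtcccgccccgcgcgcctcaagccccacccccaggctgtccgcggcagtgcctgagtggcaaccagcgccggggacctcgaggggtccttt
PSME4: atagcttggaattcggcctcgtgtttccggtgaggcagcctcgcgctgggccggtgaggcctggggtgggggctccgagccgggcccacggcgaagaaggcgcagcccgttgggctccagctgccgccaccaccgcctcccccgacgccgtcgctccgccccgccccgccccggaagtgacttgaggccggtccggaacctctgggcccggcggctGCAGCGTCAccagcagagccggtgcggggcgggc

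Of the 43 genes, 38 had an entry in that table, which holds 250 bases before and 50 after each start (PSMA7, PSMB1, PSMB6, PSMB7 and PSMD4 had none). A match to TGACNNNGC on either strand was present in 13 of the 38, or 34.2%, against 16.1% of 27305 genes with an entry and 19.5% of those kept in the expression data. With an A as the next base, the counts were 9 of 38 proteasome genes and 3.94% of all genes. Both PSMD12 and PSME4 held TGACGCTGCA, read forward in PSMD12 and on the opposite strand in PSME4, and these 10 bases were found in the promoters of 19 of the 27305 genes. That shared stretch was noticed after the values were seen, and a match of letters does not show that a factor binds there. Of 9303 genes kept that had an entry, 10 held it, PSMD12 and PSME4 among them. Their median log2 fold change at 12 h was 0.04, against -0.06 in those without it. Further matches are given for PSMC4, a base ATPase with the third largest increase, for the core subunit PSMA4 and for PSMB9, which was lower. All 3 genes lie on the plus strand, and in PSMC4 and PSMB9 the match reads on the opposite strand. The match starts 126 bases before the RefSeq start in PSMA4 and 148 before it in PSMB9, but 28 bases after it in PSMC4. Unlike the sequences above, all 3 stretches lie inside the gene by GENCODE.
PSMC4, chr19:39971184-39971208: agaggccgGCTTGGTCActatggag
PSMA4, chr15:78540652-78540676: gggcacgaTGACTCTGCaccgcctc
PSMB9, chr6:32854036-32854060: gcggggctGCCTCGTCActtgtctc

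At 2 h the proteasome genes lay near their DMSO levels, with log2 fold changes from -0.19 to 0.32. The median log2 fold change of the 43 was -0.04, against -0.01 for all genes kept. Leaving out 1 library turned the sign of this median, to 0.10 without DMSO replicate 1 and 0.12 without 2 h replicate 2, while it was -0.17 without DMSO replicate 2 and -0.16 without 2 h replicate 1. The limma test of 2 SpiD7 against 2 DMSO libraries, with Benjamini-Hochberg adjustment over 13287 genes, called 0 of the 43 at an adjusted p under 0.05 and called 0.0226% of all genes (3 genes). At an unadjusted p under 0.05 the count was also 0 of 43, beside 378 of 13287 genes. In simulated data with the spread of each gene in these libraries, this test recovered none of the genes changed by a large fold, so that an absence of calls does not show an absence of change. No member passed 1.5-fold, which 5.97% of all genes did upward and 1.41% downward. In 40 of the 43 genes the change lay within 0.2 of 0 on the log2 scale in each numbered pair of libraries, which was not counted over all genes.

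Only PSME4 had both 2 h libraries above both DMSO libraries, a pattern seen in 13.7% of all genes. Both 2 h libraries lay below both DMSO libraries in 3 members (PSMB6, PSMD10 and NFE2L1), against 8.1% of all genes. As shares of the 43 these counts were 2.33% and 6.98%, both under the background.

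At 6 h and 12 h each time had 1 library, and levels were set beside both DMSO libraries. A limma fit of all 4 groups, added after the data were seen, took the spread from the DMSO and 2 h pairs (2 residual degrees of freedom) and assumed that the lone libraries vary like them. It called 0 of 43 members at 6 h (0.294% of all genes) and 0 at 12 h (0.339%), with adjusted p of at least 0.925 and 0.47 in the members. At an unadjusted p under 0.05 it had 0 members at 6 h and 2 at 12 h, PSMC4 and PSME4, beside 738 and 1221 of all genes. Against the mean of both DMSO libraries, the 43 genes had a median change of 0.18 at 6 h and 0.13 at 12 h on the log2 scale, beside 0.03 and -0.05 for all genes kept. At 6 h, 26 members lay above both DMSO libraries and 4 below both, or 60.5% and 9.30% of the set, where the shares over all genes were 31.6% and 29.2%. At 12 h, 23 lay above both and 6 below both, or 53.5% and 14.0%, against 30.1% and 35.6% of all genes. The remaining 13 members at 6 h and 14 at 12 h fell between the DMSO libraries. Some of the members above both were so by a narrow margin. On the log2 scale, PSMD9 and PSMB5 were each 0.02 above DMSO replicate 1 at 6 h. At 12 h, PSMA1, PSMA2 and PSMD4 were 0.003, 0.004 and 0.01 above it. The same 20 genes were above both at 6 h and 12 h, which 21.3% of all genes were, and 6 were above both at 6 h alone (PSMA3, PSMA5, PSMC5, PSMD7, PSMD9 and PSMD10). The comparisons at 2 h, 6 h and 12 h share the DMSO libraries.

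The changes were small in most members. At 6 h, 0 of 43 genes were more than 1.5-fold higher (11.8% of all genes) and 1, PSMB9, was more than 1.5-fold lower (8.67% of all genes). At 12 h, 4 were more than 1.5-fold higher (PSMD12, PSME4, PSMC4 and PSMD14), which is 9.30% of the set beside 13% of all genes, and PSMB9 alone was lower, beside 13.5%. Just past that limit at 12 h lay PSMD14 at 0.60, and short of it lay PSMB8 at -0.57 and POMP at 0.50 on the log2 scale. Among all genes kept, 906 had a larger increase at 12 h than PSMD12, the highest of the members.

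**Figure D1:**
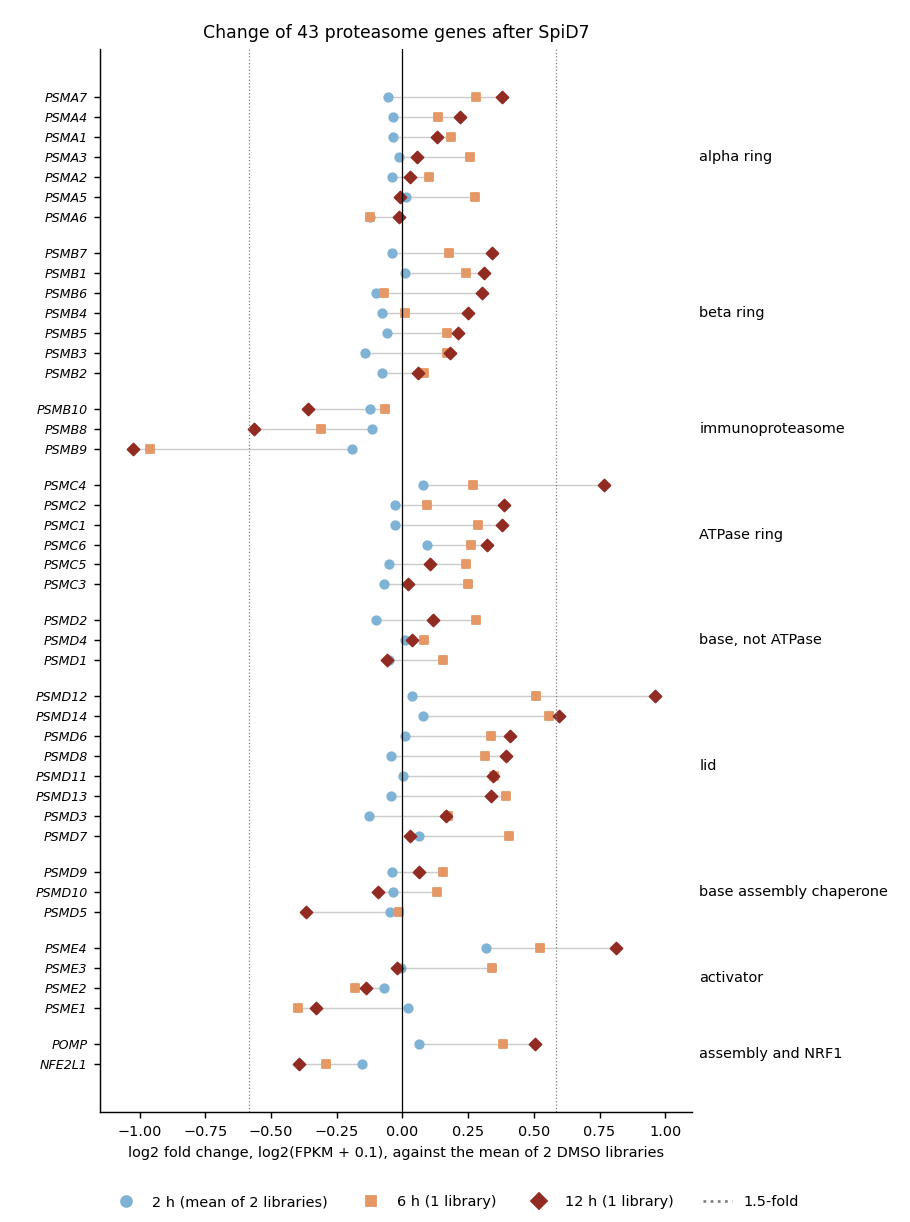
The log2 fold change, from log2(FPKM + 0.1), of each of the 43 genes against the mean of 2 DMSO libraries, with genes in rows by their place in the proteasome and times as circles (2 h, mean of 2 libraries), squares (6 h, 1 library) and diamonds (12 h, 1 library). Circles lie between -0.19 and 0.32, and only PSMD12, PSME4, PSMC4, PSMD14 and PSMB9 pass the dotted 1.5-fold lines at 12 h.

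The DMSO libraries were not alike in these genes. Replicate 2 was lower than replicate 1 in 34 of 43 members and in 7189 of the 13287 genes kept. The median difference was -0.27 on the log2 scale in the members, against -0.06 for all genes kept. The library at 6 h was closer to DMSO replicate 1 than to replicate 2 in 41 of 43 members (66.8% of all genes), and the library at 12 h in 36 of 43 (52.0% of all genes). Against DMSO replicate 1 alone, which needs no recovered value, the median of the members was 0.06 at 6 h and 0.05 at 12 h. That of all genes kept was -0.02 and -0.06. Against replicate 2 alone the median of the members was 0.32 and 0.30, beside 0.08 and -0.002 for all genes kept. Part of the distance from the mean of both DMSO libraries was thus the distance between those libraries. The change at 12 h was larger in size than the DMSO difference in 19 of the 43 genes, which was not counted over all genes.

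Without DMSO replicate 2, 3 members were more than 1.5-fold higher at 12 h (PSMD12, PSMC4 and PSME4) and PSMD5 alone was lower, where 15.5% of all genes were higher and 15.5% lower. PSMB9 and PSMD14 no longer passed. Without DMSO replicate 1, 6 were higher (PSMC4, PSMD6, PSMD8, PSMD12, PSMD14 and PSME4) and 3 lower (PSMB8, PSMB9 and PSME1), where 15.6% and 17.6% of all genes were. PSMD12, PSMC4 and PSME4 passed against either DMSO library.

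**Figure D2:**
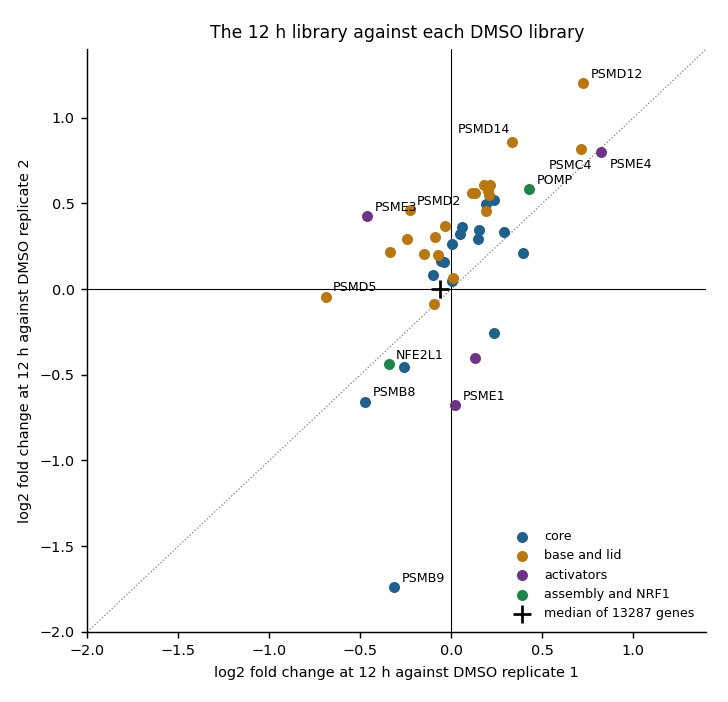
The log2 fold change at 12 h against DMSO replicate 1 (x axis) and against DMSO replicate 2 (y axis), with 1 point per gene, coloured by group, a dotted line of equal change and a cross at the median of all 13287 genes. PSME4, PSMC4 and PSMD12 lie at 0.82, 0.71 and 0.72 on the x axis, while PSMB9 lies at -0.31 on the x axis and -1.74 on the y axis.

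The core particle changed little. The median over its 17 genes was 0.13 on the log2 scale at both 6 h and 12 h, and the 14 without the immunoproteasome had medians of 0.17 and 0.20. Against DMSO replicate 1 alone the medians were 0.03 and 0.05 for the 17 and 0.06 and 0.10 for the 14. All 7 constitutive beta subunits were higher at 12 h than the DMSO mean, by 0.06 to 0.34, and 6 of them lay above both DMSO libraries. Of the 7 alpha subunits, which form the gated outer rings, 4 lay above both DMSO libraries at 12 h and 6 did at 6 h. Over all genes kept, 30.1% lay above both at 12 h and 31.6% at 6 h. At 12 h, PSMA1 and PSMA2 were only 0.003 and 0.004 on the log2 scale above DMSO replicate 1.

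PSMA7, an alpha subunit and the most abundant member by mean FPKM, was at 346 and 283 FPKM with DMSO, then 325 and 279 after 2 h, 379.6 after 6 h and 406 after 12 h. It was the core gene with the largest increase at 12 h, at 0.38 on the log2 scale, and was 0.23 above DMSO replicate 1 alone. PSMB1, a beta subunit without a proteolytic site, was at 238 and 231 FPKM with DMSO, then 231 and 243 after 2 h, 277 after 6 h and 292 after 12 h. Its DMSO libraries were close together, and both later libraries stood above all 4 others.

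Against DMSO replicate 1 alone, the constitutive catalytic subunits PSMB5, PSMB6 and PSMB7 changed alike at 6 h, each by 0.02 on the log2 scale. Against the mean of both DMSO libraries the changes were 0.17, -0.07 and 0.18. DMSO replicate 2 was lower than replicate 1 in PSMB5 and PSMB7 and higher in PSMB6. PSMB5, which carries the chymotrypsin-like activity, was at 223 and 181 FPKM with DMSO, then 209.7 and 178 after 2 h, 226 after 6 h and 233 after 12 h, so that the later libraries were barely above DMSO replicate 1. PSMB6, which carries the caspase-like activity, was at 132 and 149 FPKM with DMSO, then 131 and 131 after 2 h, 134 after 6 h and 173 after 12 h. The 12 h library alone stood above the others in this gene. PSMB7, which carries the trypsin-like activity, was at 134 and 108 FPKM with DMSO, then 125 and 109 after 2 h, 136 after 6 h and 152 after 12 h. Their log2 fold changes at 12 h were 0.21, 0.30 and 0.34.

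The immunoproteasome subunits were lower at 12 h, in the direction opposite to the 7 constitutive beta subunits. PSMB8 was at 43.6 and 49.6 FPKM with DMSO, then 38.8 and 47.4 after 2 h, 37.5 after 6 h and 31.4 after 12 h. The libraries at 6 h and 12 h were below all 4 others. The difference at 12 h was -0.57 on the log2 scale, and -0.47 against DMSO replicate 1 alone. PSMB9 was at 10.5 and 28.3 FPKM with DMSO, then 10.1 and 22.4 after 2 h, 8.80 after 6 h and 8.40 after 12 h. Replicate 2 was far above replicate 1 in both groups, and the log2 fold change of -1.03 at 12 h shrank to -0.31 against DMSO replicate 1 alone. PSMB10 was at 45.1 and 51.6 FPKM with DMSO, then 43 and 45.7 after 2 h, 46.0 after 6 h and 37.6 after 12 h, and was below the others at 12 h alone. PSMB8 and PSMB9 lie next to each other at chr6:32840717-32844703 and chr6:32844136-32859585 (hg38), where the annotated genes overlap, and each was summed from 8 rows of the table.

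The interferon-inducible members, a group of 5 formed after the values were seen (PSMB8, PSMB9, PSMB10, PSME1 and PSME2), were all higher in DMSO replicate 2 than in replicate 1. So were 5985 of the 13287 genes kept. The median difference of the 5 was 0.53, against -0.28 in the other 38 members. As the group was formed from these values, its shared sign is no separate result. The trait was not particular to it, as 9 of the 43 members were higher in replicate 2. Among them were PSMA6 (0.49), PSMB6 (0.18), NFE2L1 (0.09) and PSME4 (0.02). PECAM1, an endothelial marker, was also higher in the recovered libraries. It was at 10.7 FPKM in DMSO replicate 2 against 0.74 in replicate 1, and at 7.74 against 0.96 FPKM at 2 h. The other endothelial marker looked at, CDH5, stayed under 1 FPKM in every library, at 0.72 in DMSO replicate 2 against 0.05 in replicate 1. The part of PECAM1 in these differences was not tested.

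Against the mean of both DMSO libraries, the base and lid had the highest medians of the 4 groups, 0.27 on the log2 scale at 6 h and 0.24 at 12 h over 20 genes. They also had the largest gap between the DMSO libraries among these 4 groups, with a median of -0.40 and all 20 genes lower in replicate 2. Against DMSO replicate 1 alone, the medians were 0.11 and 0.06, and the activators then had a higher median at 12 h, 0.07. The 8 lid genes had medians of 0.37 at both times, the 6 ATPases 0.26 and 0.35, and the 3 base subunits without ATPase activity (PSMD1, PSMD2 and PSMD4) 0.16 and 0.04. Against DMSO replicate 1 alone, these became 0.16 and 0.15 for the lid, 0.08 and 0.20 for the ATPases, and -0.06 and -0.23 for the 3 base subunits, whose direction turned. In the 3 chaperones that assemble the base (PSMD5, PSMD9 and PSMD10), the median was 0.13 at 6 h but -0.09 at 12 h, and 0.02 and -0.10 against replicate 1 alone.

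PSMD12, which encodes the lid subunit RPN5 and lies at chr17:67337916-67366627 (hg38), was at 91.8 and 65.9 FPKM with DMSO, then 97.7 and 65.3 after 2 h, 111 after 6 h and 152 after 12 h. The 12 h library was the highest of the 6 and the 6 h library came next. The increase at 12 h was 1.95-fold against both DMSO libraries, or 0.96 on the log2 scale, and 0.72 and 1.2 against replicates 1 and 2. GENCODE lists 1 pseudogene named after PSMD12.

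PSMC4, an ATPase of the base at chr19:39971005-39981441, was at 110.2 and 102 FPKM with DMSO, then 115 and 109 after 2 h, 128 after 6 h and 181 after 12 h. Its DMSO libraries were close together, and most of its 1.70-fold increase lay between 6 h and 12 h. PSMD14, the lid enzyme that cuts ubiquitin chains from substrates, at chr2:161308038-161411717, was at 131 and 91.3 FPKM with DMSO, then 139 and 96.5 after 2 h, 161 after 6 h and 166 after 12 h. Both later libraries stood above the other 4 and were almost alike. Its change at 12 h was 0.60 against both DMSO libraries but 0.33 against replicate 1 alone.

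The chaperones of the base did not share this course. PSMD5 was at 22.8 and 14.6 FPKM with DMSO, then 21.9 and 14.3 after 2 h, 18.1 after 6 h and 14.1 after 12 h, so that the 12 h library was close to DMSO replicate 2 and 0.69 on the log2 scale below replicate 1. PSMD10 was at 24.7 and 24.5 FPKM with DMSO, then 24.5 and 23.5 after 2 h, 27.0 after 6 h and 23.1 after 12 h. All 6 values of PSMD10 lay close together, and those at 6 h and 12 h fell on opposite sides of DMSO.

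**Figure D3:**
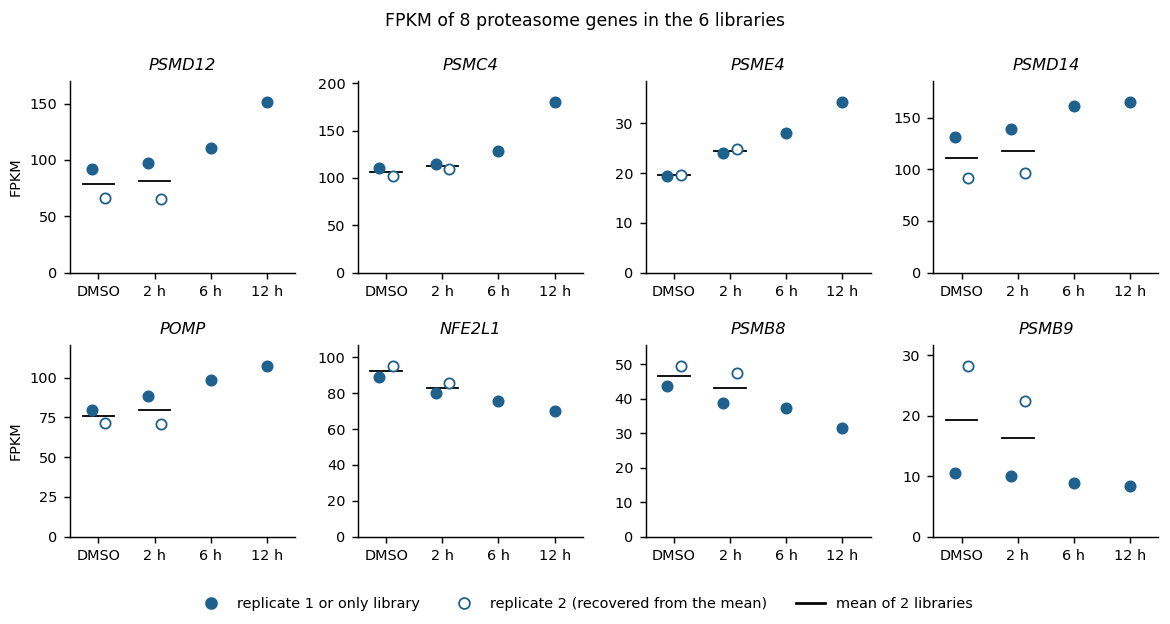
FPKM, on linear axes from 0, of 8 genes in the 6 libraries, by treatment, with filled circles for replicate 1 or the only library of a time, open circles for the recovered replicate 2, and a bar at the mean of 2 libraries. PSMD12, PSMC4 and PSME4 are highest at 12 h (152, 181 and 34.4 FPKM), NFE2L1 and PSMB8 are lowest there (70.3 and 31.4), and PSMB9 differs mainly between replicates (10.5 and 28.3 in DMSO).

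Of the 4 activators, PSME4 alone was above both DMSO libraries at every time. It encodes PA200, a nuclear activator that opens the core without ATP, and lies at chr2:53864067-53970840. It was at 19.4 and 19.7 FPKM with DMSO, then 24 and 24.9 after 2 h, 28.2 after 6 h and 34.4 after 12 h. Every treated library was above both DMSO libraries, and the level was higher at each later time, a course that was not counted over all genes. The changes were 1.25-fold at 2 h, 1.44-fold at 6 h and 1.76-fold at 12 h, and the limma test at 2 h gave an effect of 0.32 on the log2 scale with a standard error of 0.15 and an adjusted p of 1 (unadjusted p = 0.117). Its DMSO libraries differed by 0.02 on the log2 scale.

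PSME1 and PSME2 encode the alpha and beta subunits of the interferon-inducible activator PA28. PSME1 was at 170.1 and 276 FPKM with DMSO, then 181 and 266 after 2 h, 165 after 6 h and 173 after 12 h. PSME2 was at 189 and 274 FPKM with DMSO, then 183 and 257 after 2 h, 201 after 6 h and 207 after 12 h. In both genes the later libraries were near DMSO replicate 1 and far from replicate 2. PSME3, which encodes the nuclear PA28 gamma, had the reverse difference between replicates, at 99.9 and 54.0 FPKM with DMSO, then 97.8 and 54.8 after 2 h, 93.0 after 6 h and 72.4 after 12 h. Its libraries at 6 h and 12 h both fell between the DMSO libraries.

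The genes of assembly and control differed in direction. POMP encodes the maturation protein that guides the assembly of the core and is degraded by it. It was at 79.9 and 71.8 FPKM with DMSO, then 88.7 and 70.6 after 2 h, 98.8 after 6 h and 108 after 12 h, and the libraries at 6 h and 12 h were above all 4 others. The change at 12 h was 0.50 against both DMSO libraries and 0.43 against replicate 1 alone. NFE2L1, at chr17:48048329-48061487, was at 89.3 and 95.4 FPKM with DMSO, then 80.2 and 85.8 after 2 h, 75.5 after 6 h and 70.3 after 12 h. Every treated library was below both DMSO libraries, and the level was lower at each later time, with differences of -0.15 on the log2 scale at 2 h (standard error 0.16, unadjusted p = 0.397 and adjusted p = 1 by limma), -0.29 at 6 h and -0.39 at 12 h. How many of all genes had every treated library below both DMSO libraries was not counted. NRF1 is controlled largely at the level of the protein, which these libraries do not measure.

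Counting over the whole set, 18 members had a change that was higher at 6 h than at 2 h and higher again at 12 h, and lay above both DMSO libraries at 12 h, as 15.4% of all genes did. They were PSMA4, PSMA7, PSMB1, PSMB3 to PSMB7, PSMC1, PSMC2, PSMC4, PSMC6, PSMD6, PSMD8, PSMD12, PSMD14, PSME4 and POMP. The reverse course was followed by 3 members, PSMB8, PSMB9 and NFE2L1, and by 18.4% of all genes. The level was higher at 12 h than at 6 h in 21 of 43 genes and in 42.8% of all genes.

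The members with a promoter match had a wide range of changes. Among the 13 genes with a match to TGACNNNGC the median log2 fold change at 12 h was 0.10, with a range of -1.03 (PSMB9) to 0.96 (PSMD12), and among the 25 without it was 0.12, with a range of -0.57 (PSMB8) to 0.60 (PSMD14). The 3 members with the largest increases, PSMD12, PSME4 and PSMC4, held a match, and so did PSMB9 and PSMD5, which were lower. In PSMC4 the match lay after the RefSeq start. At 6 h the medians were 0.16 with a match and 0.26 without. Over all genes kept that had an entry, the medians at 12 h were -0.05 with a match and -0.06 without. With an A as the next base, the 9 genes with a match had a median of 0.17 at 12 h against 0.06 in the 29 without, and of 0.17 against 0.25 at 6 h.

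**Figure D4:**
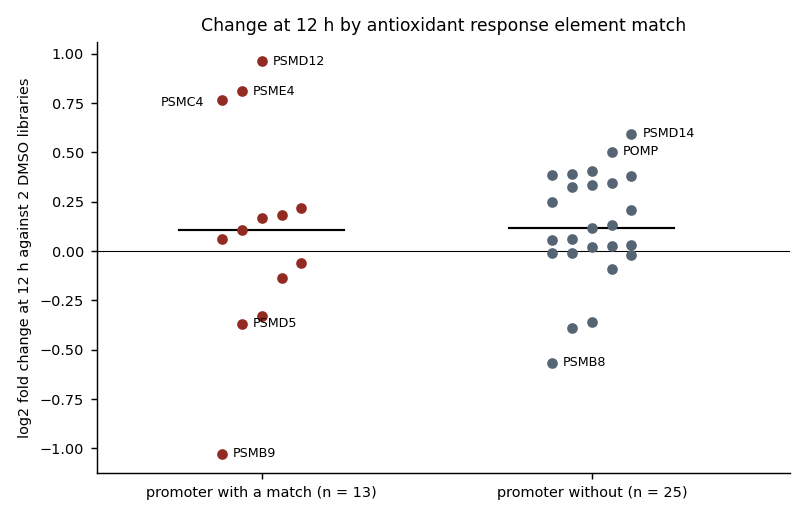
The log2 fold change at 12 h against the mean of 2 DMSO libraries (y axis) of the 38 genes with a RefSeq promoter, divided by whether the 300 bases hold the core of the antioxidant response element, with 1 point per gene, spread sideways for legibility, and a bar at the median. The bars lie at 0.10 and 0.12, and the 3 highest points (PSMD12, PSME4 and PSMC4) and the lowest (PSMB9) are on the side with a match.

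Among 16 other expressed genes of proteasome assembly, receptors and associated enzymes, 8 lay above both DMSO libraries at 6 h (31.6% of all genes) and 4 at 12 h (30.1%), while 5 lay below both at 12 h (35.6%). Their median change was 0.28 at 6 h and 0.00 at 12 h on the log2 scale. Without DMSO replicate 2 it was 0.04 and -0.20, and without DMSO replicate 1 it was 0.35 and 0.15, so that the direction at 12 h rested on the DMSO library. ZFAND2A, which encodes the stress-induced proteasome-associated protein AIRAP, was at 36.9 and 23.1 FPKM with DMSO, then 152 and 192 after 2 h, 683 after 6 h and 771 after 12 h. All treated libraries were far above DMSO, and 75 genes had a larger increase at 12 h. The limma test at 2 h gave 2.54 on the log2 scale (standard error 0.32, unadjusted p = 0.00245), but the adjusted p was 1. TXNL1, a thioredoxin-like protein bound to the regulatory particle, was at 28.7 and 22.1 FPKM with DMSO, then 29 and 20.7 after 2 h, 34.0 after 6 h and 47.3 after 12 h, the highest of its 6 values. PSMG4 and PAAF1, which encode assembly chaperones, were 0.69 and 0.68 lower on the log2 scale at 12 h, below both DMSO libraries.

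Of 13 expressed genes, 10 that process NRF1, pair with it or control its stability and 3 relatives or competitors (NFE2L2, NFE2L3 and BACH1), 7 lay above both DMSO libraries at 12 h (30.1% of all genes) and 2, NFE2L2 and NFE2L3, below both (35.6%). Their median change at that time was 0.52 on the log2 scale, and 0.57 and 0.32 against DMSO replicates 1 and 2 alone. NFE2L2 was only just below, at 58.5 FPKM against 59.0 in DMSO replicate 1. At 6 h, 4 of the 13 lay above both DMSO libraries (31.6% of all genes) and 1 below both (29.2%). The median change at 6 h was 0.16, and 0.38 and 0.10 against DMSO replicates 1 and 2 alone. DDI2, the protease that cleaves NRF1, was at 3.05 and 3.19 FPKM with DMSO, then 3.48 and 4.21 after 2 h, 4.84 after 6 h and 5.05 after 12 h, so that each treated library was above both DMSO libraries. FBXW7, the substrate receptor of a ubiquitin ligase that acts on NRF1, was at 7.14 and 5.85 FPKM with DMSO, then 9.36 and 10.9 after 2 h, 9.57 after 6 h and 11.9 after 12 h, also without overlap. MAFF, a small MAF partner, was at 6.64 and 66.2 FPKM with DMSO, then 52.9 and 94.6 after 2 h, 86.7 after 6 h and 77.1 after 12 h. Its libraries at 6 h and 12 h lay above both DMSO libraries. The size of its change was unresolved, at 3.52 on the log2 scale at 12 h against DMSO replicate 1 and 0.22 against replicate 2. NFE2L3, a relative of NFE2L1, was at 70.9 and 87.0 FPKM with DMSO, then 67.8 and 76.0 after 2 h, 65.4 after 6 h and 46.5 after 12 h, the lowest of the 6.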

How the data were processed

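Human OVCAR5 RNA was measured in 6 libraries made with the TruSeq V2 kit. Per the labels and the study's methods, the authors used Trim Galore for trimming and TopHat 2.0.8 for alignment, and estimated and compared expression with Cufflinks and Cuffdiff 2.1.1. The labels name both GRCm38 and hg38, and the deposited loci are hg38. The strand setting of the counting is not given in the sources used here. The deposited table gives the authors' FPKM for the treated and control side of each of 4 comparisons, normalized to transcript length and library size and scaled within each comparison, with their log2 fold changes, p-values and q-values, which were not used. Every column was assigned (0 left over).

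In the columns named for replicate 2, no row above 0 in the first library was at 0 (0 of 18195 rows for DMSO and 0 of 18722 for 2 h), and the ratio to the first library had a lower limit of 0.526 for DMSO and 0.509 for 2 h. They were read as the authors' group means. Replicate 2 was what remained after that share of replicate 1 was subtracted, divided by the same share, with a remainder under 0.2% of the mean set to 0. This assumes equal weights, and a merging of reads before the values were estimated cannot be told apart from it. The 6 h and 12 h values were divided by 0.972 and 0.994, the scale of the same DMSO library in those comparisons.

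Rows of a symbol were summed (33085 rows, 29982 symbols). A mean FPKM of at least 1 was required, and log2(FPKM + 0.1) was used, which understates changes of low genes. Fold changes are differences from the mean log2 value of the DMSO libraries. For 2 h against DMSO, limma 3.58.1 (R 4.3.3) was run with lmFit and eBayes, and p-values were adjusted by Benjamini-Hochberg over all genes kept. With 1 library each, 6 h and 12 h were described by counts past 1.5-fold and outside the DMSO libraries, and a limma fit of all 4 groups with a pooled spread was added after the data were seen. The limma step was tested on simulated data. It recovered the changed genes where all genes had the same spread, and none of them where each gene had the spread of these libraries. Python 3.11.15, pandas 2.3.3 and numpy 2.4.6 served for the rest. Gene positions are from GENCODE 29, and all 43 symbols matched 1 gene.

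The members, lists and tests were chosen with earlier results of these data known. Values in every library are given for the 3 highest and 2 lowest changes at 12 h within the core and within the base and lid, for PSMB5 to PSMB10, the activators, POMP and NFE2L1. Any other member, and any gene of the other lists, could be named. Alternatives were pseudocounts of 0.01 and 1, no filter or a mean FPKM of at least 5, median-ratio and upper-quartile scaling, a 2-fold limit, the highest row of each symbol, an intensity trend, a replicate block and leaving out each replicate.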

Additional observations from a re-analysis of the deposited data

Results flagged for a closer look

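PSMB6 and PSMD10 stood on opposite sides of both DMSO libraries at different times. PSMB6, a catalytic beta subunit, changed by -0.10 on the log2 scale at 2 h, with both libraries below DMSO, and by 0.30 at 12 h. PSMD10, a chaperone of the base, changed by -0.035 on that scale at 2 h, by 0.13 at 6 h and by -0.092 at 12 h. At 2 h the margins below DMSO were narrow in both genes. PSMB6 was at 130.6 and 130.7 FPKM against 131.5 in DMSO replicate 1. PSMD10 was at 24.52 FPKM in 2 h replicate 1 against 24.54 in DMSO replicate 2. These differences between times were not tested, and the libraries at 6 h and 12 h have no replicate. With at most 2 libraries in a group, no library could be tested for standing apart.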

How the results depend on the processing

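Pseudocount, filter, scaling and the treatment of repeated symbols left every count of members past 1.5-fold or outside the DMSO libraries within 1.5 times and every median of the members within 1 SD (0.19 on the log2 scale, from the DMSO difference). No scaling moved the median of all genes by more than 0.1 on the log2 scale. A 2-fold limit gave 0 members lower at 6 h and 0 higher at 12 h. When each replicate was left out in turn, members lower at 2 h numbered 0 to 1, members higher at 6 h 0 to 5 and lower at 6 h 0 to 2, members higher at 12 h 3 to 6 and lower at 12 h 1 to 3, members below every DMSO library at 6 h 4 to 13 and at 12 h 6 to 17, and those above every DMSO library 26 to 35 at 6 h and 23 to 34 at 12 h. The lists of members past 1.5-fold without each DMSO library stand with the results above.

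With the replicate number as a replicate block, limma called 0 of 43 members at 2 h, 1 member (PSME4) had an unadjusted p under 0.05, and the lowest adjusted p of a member was 0.333. Over all genes the block gave 0 calls against 3 without it, and 1874 against 378 genes at an unadjusted p under 0.05. The deviations of same-numbered DMSO and 2 h libraries correlated at 0.369 across genes, and the replicate difference had the same sign in both groups in 41 of 43 members (83.9% of all genes). The 2 pairs share only a number in the labels. No other alternative called a member at 2 h, with 0 to 21 genes called over all genes. Without a filter on low values, 1 member had an unadjusted p under 0.05 (lowest adjusted p 0.443).

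Unknown depth, 1 library at each later time and recovered replicates limit every fold change given here. By GENCODE, 12 of the 43 members have a pseudogene named after them and 7 share over 20% of their exonic bases with another gene.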
